A study of Homo sapiens with 2 samples.

Results

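The regions described here were the promoters of long noncoding RNA (lncRNA) genes, that is, genes whose transcripts are longer than small RNAs and are not translated into protein. A promoter was taken as the window from -1000 to +500 bp of the gene start in GENCODE release 44 lifted to hg19. Genes with a protein-coding transcript start within 2 kb were left out, so that the window was not also the promoter of a protein-coding gene. Of 18229 autosomal lncRNA genes, 14173 met this condition, and 2770 of these had 10 or more CpG cytosines covered by 5 reads or more in each of the libraries. The other genes had 0 such sites (9449 genes) or 1 to 9 (1954 genes). Some windows overlapped: the 2770 promoters formed 2524 separate stretches, and 475 promoters shared a stretch with another. The rule itself uses no methylation value.

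The study compared SKNO-1, an acute myeloid leukemia (AML) cell line with the t(8;21) fusion RUNX1-RUNX1T1 (AML1-ETO), with SKNO1-siAE, a line made from SKNO-1 cells by infection with the lentiviral vector pRRLcPPT.hPGK carrying the siAGF1 oligonucleotides against the fusion site of the mRNA. Both lines were kept in the same serum-supplemented medium, and DNA methylation was measured by MCC-Seq, in which probes capture bisulfite-converted DNA of selected regions. There was 1 library per line and no line infected with an empty vector among the 2 samples, so the infection, the growth of a separate line and the silencing of the fusion cannot be told apart, and no difference below has a replicate check. The files hold no expression values, so the silencing itself was not checked here.

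Many lncRNA genes have CpG-rich promoters like those of protein-coding genes, and such promoters are usually unmethylated when they can be used and methylated when they are stably silent. In blood cells some lncRNA transcripts are known as hosts of microRNAs, as scaffolds of nuclear bodies or as imprinted regulators whose promoter is methylated on the copy from 1 parent. The fusion protein of t(8;21) AML binds DNA through the Runt domain of RUNX1 and recruits corepressors through its RUNX1T1 moiety.

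Stretches of 6 promoters are printed first, chosen to show near complete contrasts in each direction (LINC00899, ENSG00000207751, ZNF790-AS1 and LINC02952), a host of a blood microRNA (MIR155HG) and an imprinted gene (H19). Each is the 150 bp of its window with the most measured sites, 5' to 3' on the strand of the gene. Capitals mark CpGs measured in both libraries on at least 1 strand, and a lone capital at an end belongs to a CpG cut by the edge. The stretches of LINC00899 (chr22:46440418-46440567, minus strand), ENSG00000207751 (chr22:22006065-22006214, plus strand) and MIR155HG (chr21:26934371-26934520, plus strand) were less methylated in SKNO-1. The stretch of H19 (chr11:2026633-2026782, minus strand), an imprinted gene, was less methylated in SKNO-1 too. Those of ZNF790-AS1 (chr19:37288505-37288654, plus strand) and LINC02952 (chr11:69259209-69259358, minus strand) were more methylated in SKNO-1. Positions and letters are those of hg19 (GRCh37).
LINC00899: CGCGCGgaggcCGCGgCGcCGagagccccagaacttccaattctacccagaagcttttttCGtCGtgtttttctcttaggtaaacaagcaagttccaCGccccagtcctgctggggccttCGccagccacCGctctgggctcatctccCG
ENSG00000207751: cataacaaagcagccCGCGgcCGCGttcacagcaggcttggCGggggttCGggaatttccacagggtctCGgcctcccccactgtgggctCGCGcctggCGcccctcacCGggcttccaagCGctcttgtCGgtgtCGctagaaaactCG
MIR155HG: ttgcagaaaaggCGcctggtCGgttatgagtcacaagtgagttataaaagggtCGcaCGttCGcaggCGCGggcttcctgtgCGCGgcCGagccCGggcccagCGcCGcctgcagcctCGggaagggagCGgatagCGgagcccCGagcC
H19: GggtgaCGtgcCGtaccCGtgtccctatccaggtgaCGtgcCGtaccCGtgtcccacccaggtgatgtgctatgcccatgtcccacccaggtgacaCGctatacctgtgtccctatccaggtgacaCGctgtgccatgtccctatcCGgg
ZNF790-AS1: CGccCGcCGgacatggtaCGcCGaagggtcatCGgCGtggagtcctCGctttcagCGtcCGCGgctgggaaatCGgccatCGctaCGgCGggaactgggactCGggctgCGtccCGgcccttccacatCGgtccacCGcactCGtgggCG
LINC02952: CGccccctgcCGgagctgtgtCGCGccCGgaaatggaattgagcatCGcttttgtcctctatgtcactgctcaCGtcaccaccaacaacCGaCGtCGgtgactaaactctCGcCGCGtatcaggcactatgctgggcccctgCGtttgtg

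All 13 CpGs of the LINC00899 stretch were measured, with 0 methylated reads of 162 in SKNO-1 against 250 of 259 in SKNO1-siAE. In the ENSG00000207751 stretch SKNO-1 had 2 methylated reads of 299 and SKNO1-siAE 527 of 537. The MIR155HG stretch had 0 methylated reads of 142 in SKNO-1 and 83 of 216 in SKNO1-siAE, a partial level. The reverse held for ZNF790-AS1, with 853 of 943 methylated reads in SKNO-1 and 0 of 529 in SKNO1-siAE, and for LINC02952, with 626 of 675 and 0 of 367. The H19 stretch had 214 of 353 methylated reads in SKNO-1 and 663 of 737 in SKNO1-siAE. Reads at neighbouring CpGs can come from 1 molecule, so read counts here are not independent molecules.

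The 98695 distinct sites of the lncRNA promoters had a summed coverage of 2016628 in SKNO-1 and 1987351 in SKNO1-siAE, where a read counts once at each site it covers, and the median depth of a site was 15 reads in each library. Over all deposited sites, 4713346 and 4694016 in number, the summed coverage was 83620068 and 82164216. The level of a promoter was the mean of the levels of its sites, where the level of a site is its methylated reads divided by all its reads. Differences are given as SKNO-1 minus SKNO1-siAE, and a promoter was called lower or higher when the difference reached 0.2, a limit of size and not a test. Over the 3168726 sites shared by both libraries levels averaged 0.587 in SKNO-1 against 0.655 in SKNO1-siAE, so differences below 0 were the more common direction in the genome at large.

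The median promoter level of the lncRNA genes was 0.704 in SKNO-1 against 0.840 in SKNO1-siAE. The median difference was -0.0347. A total of 543 promoters (19.6%) were lower in SKNO-1 and 94 (3.39%) were higher. Over all 17766 promoters of lncRNA and protein-coding genes the shares were 14.7% lower and 3.11% higher. Among the 14996 protein-coding promoters alone 13.8% were lower and 3.05% higher, and among 79639 fixed windows of the same length 15.4% were lower and 3.16% higher. The lncRNA promoters thus had more lower calls than these backgrounds and a like share of higher calls. Whether the excess goes beyond the spread between cultures was not tested, since promoters of 1 library are not replicates. Within 0.02 of the lower limit 63 promoters were called and 60 were not, and within 0.02 of the higher limit 6 were called and 19 were not.

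**Figure D1:**
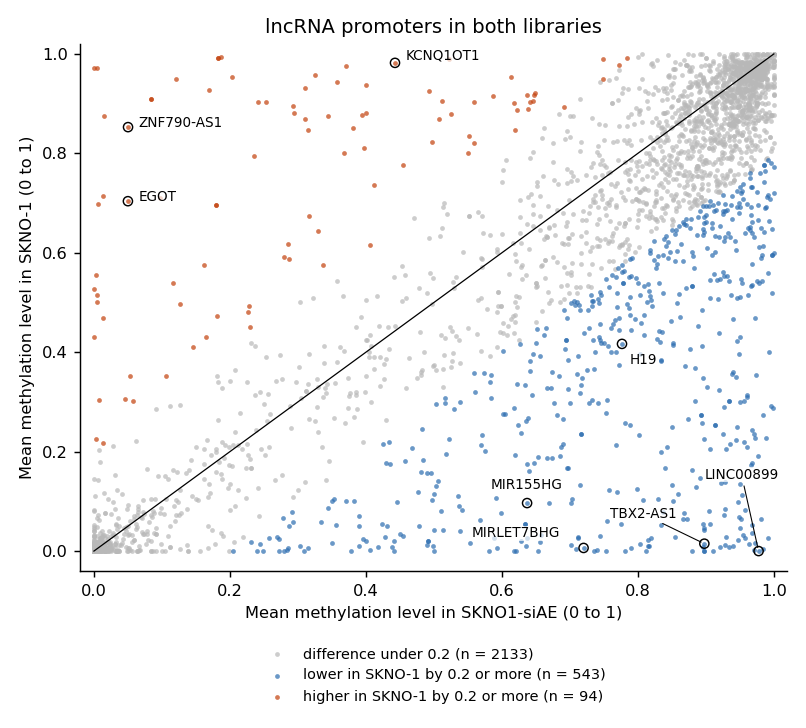
Mean methylation level of each lncRNA promoter in SKNO1-siAE (x axis, 0 to 1) and in SKNO-1 (y axis, 0 to 1). Each point is 1 promoter, the diagonal marks equal levels, and open circles mark named promoters. The 543 blue points below the diagonal are the promoters lower in SKNO-1 by 0.2 or more, and the 94 orange points above it are those higher.

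The kinds of promoter also differed in the level found in SKNO1-siAE. Of the lncRNA promoters, 37.4% had a level of 0.9 or more in SKNO1-siAE, against 15.4% of the protein-coding promoters, and 15.2% against 43.1% had a level under 0.1. Among promoters with a level of at least 0.2 in SKNO1-siAE, 23.9% of 2269 lncRNA promoters were lower in SKNO-1, and 27.9% of 7399 protein-coding promoters were. Within this range the lncRNA promoters did not have the larger share of lower calls. The order depended on the class: with a SKNO1-siAE level of 0.9 or more the lower share was 17.2% for lncRNA and 25.7% for protein-coding promoters, and between 0.1 and 0.9 it was 27.8% and 23.7%. For higher calls, among promoters with a level of at most 0.8 in SKNO1-siAE, 7.59% of 1238 lncRNA and 4.07% of 11248 protein-coding promoters were higher in SKNO-1. These classes use a level that also enters the difference, so the shares are a description.

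**Figure D2:**
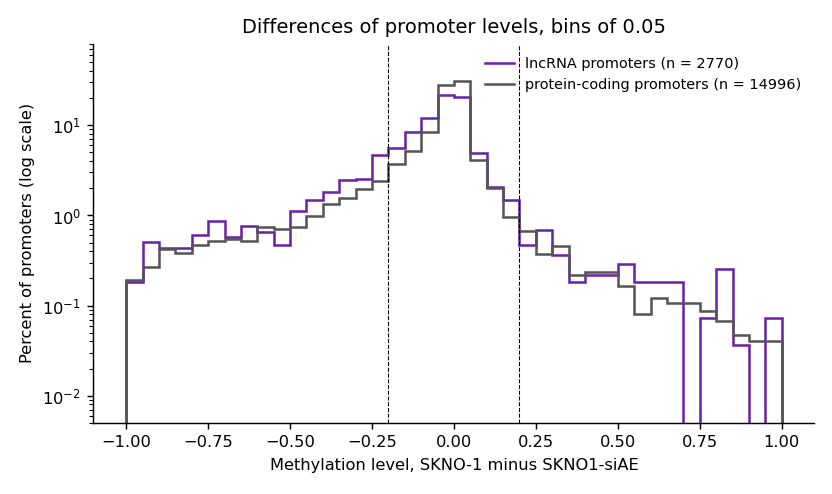
Percent of promoters (y axis, log scale) by difference in methylation level, SKNO-1 minus SKNO1-siAE (x axis, bins of 0.05), for 2770 lncRNA and 14996 protein-coding promoters. Dashed lines mark the limit of 0.2. The lncRNA line lies above the protein-coding line in most bins below -0.05, and 19.6% of lncRNA promoters lie at or below -0.2 against 13.8% of protein-coding promoters.

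Most calls were partial changes. Of the 543 lower promoters 152 were lower by at least 0.5, and of the 94 higher promoters 35 were higher by at least 0.5. Differences of at least 0.9 were seen at 19 lower and 2 higher promoters. Only 27 promoters had a level under 0.1 in SKNO-1 and of 0.9 or more in SKNO1-siAE, and 4 had the reverse. The largest single class was promoters between 0.1 and 0.9 in both libraries (1046), followed by those at 0.9 or more in both (559), those that were intermediate in SKNO-1 and at 0.9 or more in SKNO1-siAE (451), and those under 0.1 in both (380). Among lower promoters the median level was 0.357 in SKNO-1 against 0.823 in SKNO1-siAE, and among higher promoters 0.851 against 0.293. Median site depth was 15 and 15 reads at lower promoters, 17 and 15 at higher promoters, and 15.5 and 15.5 at the rest.

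Along the window, the lower promoters differed most next to the gene start. In the 100 bp before the start site levels averaged 0.231 in SKNO-1 against 0.753 in SKNO1-siAE, a difference of -0.523. Between -800 and -700 bp the levels were 0.422 and 0.747, a difference of -0.325. The SKNO-1 profile dipped at the start while the SKNO1-siAE profile was nearly flat. The higher promoters had lower levels near the start in both libraries, with 0.164 in SKNO1-siAE and 0.643 in SKNO-1 between +100 and +200 bp. Promoters within the limit had a dip in both libraries, with levels of 0.545 and 0.565 between -200 and -100 bp.

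**Figure D3:**
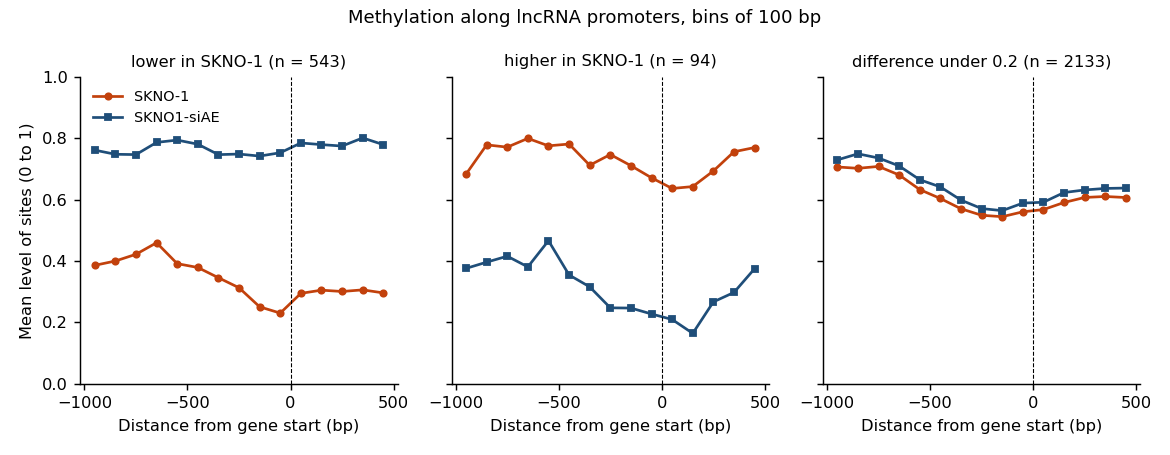
Mean methylation level of single sites (y axis, 0 to 1) by distance from the gene start (x axis, bp, bins of 100 bp) in SKNO-1 (circles) and SKNO1-siAE (squares). The panels show 543 lower, 94 higher and 2133 other lncRNA promoters. In the lower group the SKNO-1 line dips to 0.231 just before the start while the SKNO1-siAE line stays between 0.742 and 0.802.

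Within a library, the strands of the same promoter gave a yardstick for the error of a level. Of 2127 promoters measured on both strands, the strands differed by 0.2 or more at 4.33% in SKNO-1 and at 3.90% in SKNO1-siAE. Between the libraries the difference reached 0.2 at 23.98% of the promoters on the plus strand and at 24.02% on the minus strand. Of the 400 lower promoters with both strands measured, 291 (72.8%) passed the limit on each strand, as did 58 of 75 higher promoters (77.3%). The strands share the library, so this yardstick holds the counting error and not the spread between cultures. Fisher's exact test of single sites, adjusted over all shared sites by the Benjamini-Hochberg method, called 14087 of the 98695 sites (14.3%) lower and 4370 (4.43%) higher in SKNO-1, against 11.7% and 4.4% of sites genome-wide. This test compares the 2 libraries and not the conditions.

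By CpG content, the share of lower promoters was 17.8% among the 1052 CpG-rich promoters, 19.4% among the 1254 of intermediate content and 24.4% among the 464 CpG-poor ones. The protein-coding promoters had 11.6%, 18.4% and 20.2% in the same classes. The gap between the kinds of gene was widest among CpG-rich promoters, where the median SKNO1-siAE level was 0.751 for lncRNA and 0.0721 for protein-coding genes. Among CpG-rich promoters with a SKNO1-siAE level of 0.2 or more the order turned, with 26.2% of 715 lncRNA and 31.2% of 4003 protein-coding promoters lower. Higher promoters made up 3.90%, 2.39% and 4.96% of the lncRNA classes.

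Over all lncRNA promoters 19.6% were lower and 3.39% higher. By name, 128 of the 537 LINC genes (intergenic lncRNA genes named by number) were lower (23.8%) and 19 were higher (3.54%). Of 1677 genes known only by an Ensembl identifier 313 were lower (18.7%), and of 260 antisense genes named after a protein-coding gene 50 were (19.2%). The 13 genes with SNHG names, hosts of small nucleolar RNAs, had 1 lower (7.69%) and 0 higher promoters. Their median level in SKNO1-siAE was 0.00758, so most of them could not be called lower. Their share of lower promoters thus cannot be compared with those of the other name classes. Promoters outside protein-coding genes were lower in 407 of 2041 cases (19.9%), those inside a protein-coding gene on the other strand in 108 of 574 (18.8%) and those inside on the same strand in 28 of 155 (18.1%). The nearest protein-coding start lay 2 to 5 kb away at 307 promoters, of which 14.7% were lower, 5 to 50 kb away at 1354 (20.6%) and over 50 kb away at 1109 (19.7%).

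Each lncRNA promoter was set beside the nearest protein-coding promoter that was itself measured, which need not be the nearest protein-coding gene. Within 2 to 10 kb, 26 of 76 lower lncRNA promoters (34.2%) had a nearest measured protein-coding promoter that was also lower, against 50 of the 307 lncRNA promoters within the limit (16.3%). Of 23 higher lncRNA promoters 5 (21.7%) had a higher neighbour, against 8 of 307 (2.61%). At 10 to 50 kb the shares with a lower neighbour were 15.4% and 16.05%, and beyond 50 kb 16.4% and 15.6%. The correlation of the paired differences was 0.184 over the 406 pairs at 2 to 10 kb, which share the libraries and often the region, and 0.0449 over the 897 pairs at 10 to 50 kb. LINC01096 is an example: its promoter differed by -0.792, and that of NKX3-2, a homeobox gene 3293 bp away, by -0.872.

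The letters TGTGGT and TGCGGT, forms of the RUNX binding motif, were searched on both strands of each window. Either form was present in 70.1% of the lncRNA promoters, in 70.5% of the lower ones, 75.5% of the higher ones and 69.8% of the rest. Protein-coding promoters held it in 67.3% of cases. A match is a description of these windows and not a site of binding. Of lncRNA promoters with a match 19.7% were lower and 3.66% higher, and of those without a match 19.3% were lower and 2.78% higher. The share of higher promoters with and without a match was 3.87% and 3.95% in the CpG-rich class, 2.74% and 1.46% in the intermediate class and 5.72% and 3.03% in the low class. For protein-coding promoters it was 2.78% and 2.56%, 2.92% and 3.74%, and 4.81% and 5.04% in the same classes, so the order was not the same in each class or kind of gene.

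The largest negative differences were near complete. LINC00899, of the leukaemia and blood list, had a level of 0 in SKNO-1 (0 of 243 reads over 26 sites, which allows a share of up to 0.0123, taken as 3 counts of the total) and of 0.978 in SKNO1-siAE (412 of 435 reads, pooled share 0.947, 95% Wilson interval 0.922 to 0.965). Its sites had a median depth of 8 reads in each library, all lay within 500 bp after the start, and 26 of 26 were called lower. ENSG00000207751, a gene without a symbol whose span holds MIR301B, had levels of 0.00270 and 0.971 over 57 sites, of which 56 were called. The pooled share there was 0.00337 (0.000925 to 0.0122) in SKNO-1 and 0.973 (0.960 to 0.982) in SKNO1-siAE. These promoters were nearly free of methylation in SKNO-1 and nearly full in SKNO1-siAE.

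Of the other large negative differences, ENSG00000283897 had levels of 0.0255 and 0.991 over 21 sites, and LINC01948 had 0.00840 and 0.933 over 23 sites. LINC02579 had 0.113 and 0.954, LINC01347 0.0551 and 0.896, and LINC01842 0.0275 and 0.854. CACNA1C-AS1, antisense inside a calcium channel gene, had 0.00937 and 0.817 over 143 sites, 121 of them called. Its SKNO1-siAE level was 0.544 beyond 500 bp upstream and 0.950 after the start, while SKNO-1 stayed between 0.00385 and 0.0140 in every part of the window. LINC01530 had 0.0268 and 0.820, LINC01675 0.0770 and 0.868, and LINC01096 0.176 and 0.969. At LINC01096 the 19 sites after the start were at 0.842 in SKNO-1, and the 68 sites in the 500 bp before it at 0.00323, so the gap lay mainly on the upstream side.

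Large positive differences were fewer. LINC02952, 196413 bp from CCND1, had levels of 0.875 in SKNO-1 and 0.0141 in SKNO1-siAE over 59 sites, with 56 called higher. The pooled shares were 0.885 (0.867 to 0.902) and 0.0159 (0.00982 to 0.0257). ZNF790-AS1, antisense to a zinc finger gene of chromosome 19, had 0.853 and 0.0502 over 103 sites, with 92 called. LINC01535, on the same chromosome, had 0.527 in SKNO-1 and 0 of 625 methylated reads in SKNO1-siAE, which allows a share of up to 0.00480, so SKNO-1 was partly methylated and SKNO1-siAE not measurably so. RPS6KB2-AS1 had 0.903 and 0.253, with its 39 sites all more than 500 bp upstream. ANKRD18DP, a lncRNA gene at an ankyrin-repeat pseudogene, had 0.710 and 0.0970, and KLHDC7B-DT, divergent from KLHDC7B, 0.943 and 0.358. NFIA-AS2, antisense in the transcription factor gene NFIA, had 0.938 and 0.3998. ENSG00000290039, inside TEX14, had 0.555 and 0.00304, and ENSG00000275888, inside CSNK1D on the other strand, 0.848 and 0.315. SKNO1-siAE was near 0 at LINC02952, LINC01535 and ENSG00000290039 and intermediate at KLHDC7B-DT and NFIA-AS2.

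Of 26 measured promoters of genes named as microRNA hosts, 8 were lower and 1 was higher, with a median difference of -0.0845 against -0.0347 over all lncRNA promoters. The background was 19.6% lower and 3.39% higher, and 26 promoters are too few to read more than the count. By coordinates, 49 lncRNA promoters belonged to genes whose span holds a microRNA gene of the annotation, and 11 of these were lower (22.4%) and 3 higher. MIRLET7BHG, which carries let-7a-3 and let-7b, had a level of 0.00630 in SKNO-1 and 0.720 in SKNO1-siAE over 34 sites. The let-7 microRNAs are known to restrain growth genes such as MYC and RAS. The pooled share was 0.0105 (0.00483 to 0.0228) and 0.740 (0.693 to 0.781). In SKNO1-siAE the 13 sites in the 500 bp before the start were at 0.857 and the 20 after it at 0.617. The start of MIRLET7BHG, at 46449749 on chromosome 22, is close to that of LINC00899 at 46440733. The differences of these promoters need not be separate.

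MIR155HG, the host of miR-155, a microRNA of activated lymphocytes and myeloid cells, had levels of 0.0966 and 0.637 over 57 sites. Its 43 sites after the start were at 0.00775 in SKNO-1 and 0.556 in SKNO1-siAE. The 5 sites beyond 500 bp upstream were at 0.576 and 0.935, so the SKNO-1 level was higher with distance upstream. DLEU2, which carries miR-16-1 and is often deleted in chronic lymphocytic leukaemia, had 0.0421 and 0.513 over 19 sites, and the difference of -0.471 became -0.303 with pooled reads. Its 4 sites after the start and the 5 between -794 and -676 bp were at 0 in both libraries, and the difference lay in the 10 sites from -993 to -948 bp, at the edge of the window. MIR17HG, host of the miR-17 cluster that MYC activates, had 0.0125 and 0.00188 over 80 sites and stayed unmethylated in both.

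Of the other lower hosts, MIR7-3HG had levels of 0.413 and 0.894, MIR130AHG 0.517 and 0.860 (a difference of -0.182 with pooled reads), and MIR548A1HG 0.391 and 0.712. MIR9-1HG had 0.00699 and 0.316, and MIR137HG, host of a microRNA best known in neurons, 0.601 and 0.879. MIR210HG, host of the hypoxia microRNA miR-210, had 0.334 and 0.634, with a difference of -0.300 that became -0.131 on the plus strand alone and -0.458 within 500 bp of the start. The higher host was MIR5689HG, with 0.695 and 0.179 over 11 sites, which it shares with LINC00518. Of the mature microRNAs of hosts past the limit, a selection of 10 is printed with the seed, bases 2 to 8, in capitals, since the seed sets the targets. Let-7a and let-7b share the seed GAGGUAG, and the others listed have seeds of their own. A mature microRNA can have more than 1 gene. Let-7a also has MIRLET7A2 in MIR100HG (a difference of -0.154), and miR-9 has MIR9-3 in MIR9-3HG (-0.0775), both within the limit. Of 18 microRNA genes found by coordinates, 16 were in the RefSeq table (GRCh38.p14), and MIR155, MIR9-1 and MIR137 were taken by the symbol of their host.
let-7a-5p: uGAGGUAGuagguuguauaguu
let-7b-5p: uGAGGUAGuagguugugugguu
miR-301b-3p: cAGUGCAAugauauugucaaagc
miR-155-5p: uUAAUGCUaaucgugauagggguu
miR-16-5p: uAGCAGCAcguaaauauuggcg
miR-7-5p: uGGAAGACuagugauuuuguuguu
miR-9-5p: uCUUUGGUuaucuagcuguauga
miR-137-3p: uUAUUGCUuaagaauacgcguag
miR-210-3p: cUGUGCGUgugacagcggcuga
miR-148a-3p: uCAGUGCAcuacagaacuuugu

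**Figure D4:**
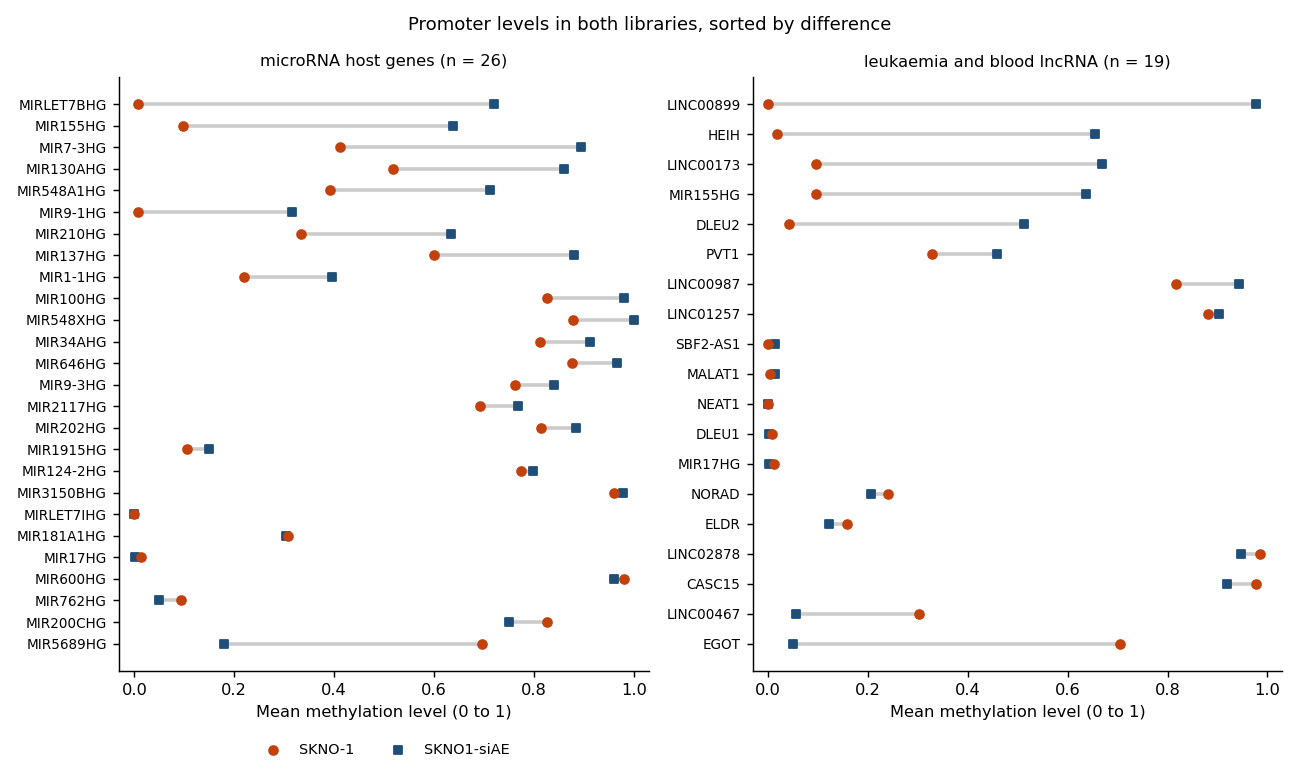
Mean methylation level (x axis, 0 to 1) of the promoters of 26 microRNA host genes and 19 leukaemia and blood lncRNA genes in SKNO-1 (circles) and SKNO1-siAE (squares), joined by a line and sorted by difference. Among the microRNA hosts 8 promoters are lower in SKNO-1 by at least 0.2 and 1 is higher, and among the leukaemia and blood genes 5 are lower and 2 are higher.

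Of 19 leukaemia and blood lncRNA genes, 5 were lower (26.3%, against 19.6% of all lncRNA promoters) and 2 higher (10.5%, against 3.39%), with a median difference of -0.00907. Besides LINC00899, MIR155HG and DLEU2, the lower promoters were HEIH, with 0.0175 and 0.655 over 57 sites, and LINC00173, with 0.0961 and 0.669 over 36 sites. EGOT, an antisense transcript inside ITPR1 first known from eosinophil development, was higher in SKNO-1, at 0.704 against 0.05 over 12 sites, all of them beyond 500 bp upstream. LINC00467 was higher, at 0.302 against 0.0569 over 87 sites, but the difference depended on how sites were weighed, with 0.401 from pooled reads, 0.311 with 10 reads per site and 0.0197 at sites of similar depth in both libraries. NEAT1, the scaffold of paraspeckles, had 0 of 340 methylated reads in SKNO-1 and 0 of 287 in SKNO1-siAE, which allow shares of up to 0.00882 and 0.0105. MALAT1, an abundant RNA of nuclear speckles, had 0.00475 and 0.0138, and NORAD, which binds Pumilio proteins, 0.240 and 0.207 (0.522 and 0.403 as pooled shares). The 29 NORAD sites after the start were at 0.0172 and 0. Its 16 sites in the 500 bp before the start were at 0.366 and 0.306, and the 6 farther upstream at 0.984 and 0.943. CASC15, a lncRNA gene near SOX4, was methylated in both, at 0.977 and 0.920. NEAT1 and MALAT1 were thus unmethylated or nearly so in both libraries.

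Of 8 measured imprinted lncRNA promoters, 1 was higher and 1 lower (12.5% each, against 3.39% and 19.6% of all lncRNA promoters). KCNQ1OT1, the antisense transcript expressed from the paternal copy whose start lies in an intron of KCNQ1, had a level of 0.982 in SKNO-1 (983 of 1003 reads, pooled share 0.980, interval 0.969 to 0.987) and 0.443 in SKNO1-siAE (343 of 888, 0.386, 0.355 to 0.419). In SKNO1-siAE the 25 sites beyond 500 bp upstream were at 0.265 and the 15 after the start at 0.611, while SKNO-1 was at 0.976 or above in each part. H19, expressed from the maternal copy, had 0.417 in SKNO-1 and 0.777 in SKNO1-siAE over 34 sites, with the gap at the 18 far upstream sites (0.512 and 0.926) and the 11 nearer ones (0.169 and 0.607), and not at the 5 after the start (0.620 and 0.612). Both genes lie in the first 5 Mb of chromosome 11, where SKNO-1 had 0.618 times the reads of SKNO1-siAE after scaling, and so does MIR210HG. Other named promoters in 5 Mb bins with a log2 read ratio (SKNO-1 over SKNO1-siAE) beyond 0.5 in size were LINC01948 (0.82), ANKRD18DP (0.71), ENSG00000283897 (0.60), ENSG00000275888 (0.53) and LINC01347 (0.51), with more reads in SKNO-1, and MIR7-3HG (-0.54), DLEU2 (-0.53) and MIR17HG (-0.52), with fewer. The part of these read ratios in the results was not tested. Of the 22 lncRNA promoters in this 5 Mb, 7 were lower and 1 was higher. In the 1597 promoters of bins with balanced reads the shares were 21.0% lower and 3.57% higher. PEG13, MEG8, MEG9, PWRN1, KCNQ1DN and DLX6-AS1 differed by less than 0.2. PEG13 (0.996 and 0.980), KCNQ1DN (0.958 and 0.944) and PWRN1 (0.828 and 0.875) were highly methylated in both libraries. MEG9 had 0.654 and 0.779, MEG8 0.435 and 0.510, and DLX6-AS1 0.348 and 0.374. MEG3 had fewer than 10 sites.

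A further list took lncRNA symbols that start like a developmental transcription factor and end in -AS, -DT, -OT or -IT. Of its 13 measured promoters 2 were lower (15.4%, against 19.6% of all lncRNA promoters) and 0 higher (against 3.39%). The match is by letters, so it also holds PAXIP1-AS2, which only shares the letters PAX. TBX2-AS1, beside the T-box gene TBX2, had levels of 0.0149 and 0.898 over 113 sites, of which 100 were called lower, and the promoter of TBX2 itself, 11712 bp away, differed by -0.620. The pooled share was 0.00708 (0.00414 to 0.0121) in SKNO-1 and 0.886 (0.869 to 0.901) in SKNO1-siAE. ZIC4-AS1, inside ZIC4, had 0.0648 and 0.872 over 12 sites. The other 11 promoters differed by between -0.184 and 0.112. The list's median difference was -0.0734.

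The 15 measured snoRNA host promoters included 1 lower, SNHG28, with 0.353 and 0.584, and 0 higher, against 19.6% and 3.39% of all lncRNA promoters. Pooled reads gave SNHG28 a difference of -0.139. The group's median levels were 0.00945 in SKNO-1 and 0.00758 in SKNO1-siAE, the lowest of the 6 lists in SKNO1-siAE. A promoter under 0.2 in SKNO1-siAE cannot be called lower. Most of these hosts thus could not be, and the small count of lower calls is no result about them. These genes carry the small nucleolar RNAs, which guide ribosomal RNA modification, and most are used in all growing cells. Of 5 HOX cluster lncRNA promoters, HOXB-AS4 was lower, with 0.662 and 0.867, that is 1 of 5 against 19.6% of all lncRNA promoters. Its difference of -0.205 was just past the limit and rested on 11 sites, of which 4 were called lower. The other 4 HOX cluster promoters differed by between -0.0321 and 0.190. HOTAIR, HOTAIRM1, HOTTIP, GAS5, CRNDE, CDKN2B-AS1, LINC-PINT and WT1-AS have a protein-coding start within 2 kb and were not described here. UCA1 had fewer than 10 sites, and TUG1 was not among the autosomal lncRNA genes of the annotation used.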

How the data were processed

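MCC-Seq libraries of SKNO-1 and SKNO1-siAE (1 each) were analysed. According to the study's methods, the authors captured bisulfite-converted DNA with SeqCap Epi probes, trimmed the reads with a Perl script, mapped them on hg19 by BSMAP and called methylation on unique sequences. The submitters' processing notes name cutadapt 1.4.2 and BSMAP 2.73. The authors deposited raw counts, the methylated and the unmethylated reads of each CpG cytosine on its strand, with at least 5 reads per site. Only sites that reached 5 reads in each library were used, so a single site is imprecise. A read is counted at each site it covers, so intervals and the upper limits for a count of 0 (3 counts of the total) cover counting error only and are too narrow where reads span several sites; whether further PCR duplicates were removed is not given in the sources used here.

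Levels, differences, strand comparisons, motif matches and Fisher's exact test (2-sided, Benjamini-Hochberg over 3168726 sites, a site being called when its adjusted p was below 0.05 and its levels differed by 0.2 or more) were computed with python 3.11.15, numpy 2.4.6, pandas 2.3.3, numba 0.67.0 and pysam 0.24.0. Calling was tested on simulated data. CpG content was classed in 500 bp stretches: high with a CpG ratio over 0.75 and GC over 55%, low with no ratio over 0.48. Read ratios used 5 Mb bins. Other assays of the study were not used here.

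The members and lists were chosen with earlier results of these data known. The sequence of 1 further stretch is not reported here. Promoters were named by rule: the 8 largest and 8 smallest differences of genes with a symbol and 2 of each of genes with an Ensembl identifier only (20 or more sites, median depth of at least 10, 1 per overlapping stretch), every list member past the limit, and 20 well-known lncRNA genes. The annotation was GENCODE release 44 in GRCh37 coordinates. Alternatives tried were the read minimum, pooled reads, merged or single strands, the window, site minimum, distance to coding starts, limit, centring, overlap, balanced bins and similar depth.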

Additional observations from a re-analysis of the deposited data

How the results depend on the processing

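The median difference of -0.0347 stayed below 0 under every alternative: -0.0315 with 10 reads per site, -0.0362 with merged strands, -0.0297 and -0.0357 with the plus or the minus strand only, -0.0330 in a window from -500 to +500 bp, -0.0336 with 20 or more sites, -0.0376 with no coding start within 5 kb, -0.0284 at sites of similar depth and -0.0363 with 1 promoter per overlapping stretch. The sets of balanced bins and of similar depth were chosen after seeing the data. With 20 or more sites 54 of 1980 promoters were higher, at sites of similar depth 39 of 1176 were higher and 225 lower, and in balanced bins 57 of 1597 were higher and 336 lower. A limit of 0.3 gave 62 higher and 342 lower promoters, and a limit of 0.1 gave 193 and 931. Centring on the median of all promoters (-0.00854) gave 104 higher and 516 lower. With 10 reads per site 9353 of 57141 single sites (16.4%) were called lower, against 14087 of 98695 (14.3%). Under the 7 alternatives that can change the level of a promoter, the 40 named promoters past the limit had 249 values, and 31 could not be had because too few sites were left. Of the 249, 243 stayed past the limit and 0 changed direction. The 6 others were LINC00467 (0.0197 at similar depth), SNHG28 (-0.139 pooled, -0.172 on the plus strand, -0.188 at similar depth), MIR210HG (-0.131 on the plus strand) and MIR130AHG (-0.182 pooled), and the cause was not tested. All 40 promoters were named for their difference in these same reads, so staying past the limit was likely from the start. The count does not describe the other calls. Site depth limits single sites, and 1 library per line limits every comparison. No paired analysis was possible because there was 1 library per line.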

Other observations

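Several promoters outside the naming rule are given as values, chosen after their values were seen. TERC, the RNA template of telomerase, had a level of 0.575 in SKNO-1 and 0.163 in SKNO1-siAE over 69 sites. LINC00886 had 0.971 and 0.00394 over 47 sites, with a median depth of 10 and 9 reads, and HIF1A-AS3, next to the hypoxia factor gene HIF1A, 0.713 and 0.0136 over 38 sites. NBAT1, a lncRNA gene named from neuroblastoma, had 0.0165 and 0.973 over 22 sites. THBS3-AS1, whose span holds MIR92B, had levels of 0 and 0.753 over 67 sites. As pooled reads it had 0 of 1267 methylated in SKNO-1, which allows a share of up to 0.00237, and 700 of 1172 in SKNO1-siAE. ENSG00000270933, whose span holds MIR148A, had 0.926 and 0.493 over 10 sites.

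The promoters of PRR34-AS1 and PRR34 overlap that of MIRLET7BHG on chromosome 22 and differed by -0.714 and -0.625. LINC02875 overlaps TBX2-AS1 and differed by -0.916. By chromosome, the share of lower lncRNA promoters ran from 9.20% on chromosome 14 (8 of 87) to 41.2% on chromosome 21 (21 of 51), where 16.4% of 171 protein-coding promoters were lower. On chromosome 1 it was 29.4% (74 of 252) against 14.9% of 1650 protein-coding promoters. These chromosomes were picked after their values were seen, and the shares were not tested.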
